A study of Mus musculus with 24 samples.

Results

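Transcripts of 10 genes that encode the NF-κB subunits (Nfkb1, Nfkb2, Rel, Rela and Relb) and the IκB proteins (Nfkbia, Nfkbie, Nfkbiz, Nfkbid and Bcl3) were followed in bone marrow-derived macrophages (BMDMs). The genes were chosen by name, as the rows of the count table whose Ensembl identifier carries one of these symbols in GENCODE M21, and all 10 were found among the 22165 genes of the table. NF-κB is a family of dimeric transcription factors that resting macrophages hold in the cytoplasm, bound by IκB proteins. Lipopolysaccharide (LPS), sensed by TLR4, activates the IκB kinase, which marks the cytoplasmic IκB proteins for degradation, and the freed dimers enter the nucleus and bind κB sites in inflammatory genes. Several of the family's own genes are known targets of these dimers, so that the pathway feeds back on itself, and the nuclear IκB proteins act at promoters rather than in the cytoplasm.

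Macrophages were grown for 7 days in 20 ng/ml M-CSF from the bone marrow of WT C57BL/6N mice and of Irg1-/- C57BL/6N mice, which lack Acod1 (Irg1), the enzyme that makes itaconate. The mice were 8 to 20 weeks old per the labels. Within each genotype, cells were left unstimulated (Unstim.), received 100 ng/ml LPS for 24 h and were harvested at once (LPS 24h), or received LPS for 24 h, a medium change, 1 h of rest and a second LPS stimulation of 3 h (LPS 24h->LPS 3h, tolerized). The non-tolerized cells (LPS 3h) went through the same steps as the tolerized cells without the first LPS. Each of the 8 groups held 3 cultures, which gave 24 libraries. The sources do not say whether the cultures of a group came from separate mice, so that the p-values measure the spread between cultures. The design asks how far the first LPS response is repeated at the second stimulation, and whether either response differs in cells that cannot make itaconate.

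The counts on genes per library ranged from 3927378 to 20430359 with a median of 11539056. Acod1, the deleted gene, was at 3794.5 CPM (normalized counts relative to library size) or more in each WT library with LPS and at 26.4 or less in each Irg1-/- library with LPS, while unstimulated cells of both genotypes had at most 11.9, so that there the gene did not check the labels. All 7 macrophage markers passed the filter on low counts, with a summed level of 3242 to 9690 CPM. The summed levels of T cell, B cell and dendritic cell markers were at most 1.70, 1.51 and 2.99 CPM. Neutrophil and precursor markers reached 84.3 CPM, in an unstimulated Irg1-/- library, and fibroblast markers ranged from 23.2 to 119 CPM. The part of these markers in the results was not tested. A prefix of the sample descriptions sorts the libraries into 4 sets. The labels do not say what the prefix is, and it is taken here as the pool in which libraries were made. All unstimulated libraries carried prefix 4 and no Irg1-/- library with LPS did, so that in Irg1-/- cells a pool, if the prefix marks one, and LPS cannot be told apart.

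On the mouse genome (GRCm38), Nfkb1 (ENSMUSG00000028163.17) lies on chr3:135584655-135691547, minus strand, Nfkb2 (ENSMUSG00000025225.14) on chr19:46304320-46312385, plus strand, Rel (ENSMUSG00000020275.9) on chr11:23736847-23770970, minus strand, and Rela (ENSMUSG00000024927.7) on chr19:5637483-5648130, plus strand. Relb (ENSMUSG00000002983.16) on chr7:19606217-19629438, minus strand, and Bcl3 (ENSMUSG00000053175.16) on chr7:19808462-19822770, minus strand, are on the same chromosome as Nfkbid (ENSMUSG00000036931.14), which lies on chr7:30421732-30428746, plus strand. Nfkbia (ENSMUSG00000021025.7) lies on chr12:55489410-55492647, minus strand, Nfkbie (ENSMUSG00000023947.7) on chr17:45555703-45563169, plus strand, and Nfkbiz (ENSMUSG00000035356.16) on chr16:55811375-55838899, minus strand. Nfkb2 shares part of its locus with Psd on the other strand, and since the use of strand in counting is not stated, reads of the pair cannot be told apart.

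All 10 genes rose with LPS and the family is known to bind the κB consensus, so the RefSeq windows around their transcription starts, from 250 bases before to 50 bases after, were searched on both strands for this degenerate sequence of 10 bases. RefSeq's table for GRCm38.p6 held 11 windows for 7 of the genes and none for Nfkb1, Relb and Nfkbiz. A match was found in 8 of the 11 windows and in 6 of the 7 genes, against 4.51% of all 32851 windows and 5.14% of all 27025 genes with a window. Rela was the gene without a match. The looser pattern GGGNNNNNCC was present in all 11 windows and in 50.8% of all windows. Matches are printed with their flanks because they carry this comparison, and the capitals mark the matching bases. Nfkb2 carried a match in each of its 3 windows, and its first window, shown here, had overlapping matches on both strands and a further match (chr19:46304688-46304717 and chr19:46304716-46304745, plus strand). All coordinates with sequences are on GRCm38.p6 (RefSeq's table. The other windows of Nfkb2 overlap and share 1 match. Rel also had overlapping matches on both strands.
Nfkb2, start 1, first: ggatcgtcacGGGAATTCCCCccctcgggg
Nfkb2, start 1, second: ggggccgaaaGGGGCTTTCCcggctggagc
Rel (chr11:23771042-23771071, minus strand): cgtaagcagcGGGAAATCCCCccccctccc
Nfkbie (chr17:45555584-45555613, plus strand): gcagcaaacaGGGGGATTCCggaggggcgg
Nfkbid, start 2, first (chr7:30422170-30422199, plus strand): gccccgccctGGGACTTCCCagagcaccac
Nfkbid, start 2, second (chr7:30422215-30422244, plus strand): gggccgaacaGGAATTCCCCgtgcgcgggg
Bcl3 (chr7:19822734-19822763, minus strand): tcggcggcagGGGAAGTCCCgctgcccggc
For Nfkbia and Rela, which had a large and a small response to LPS, a longer stretch before the first annotated exon is given (chr12:55492648-55492797, minus strand, and chr19:5637333-5637482, plus strand, GRCm38.p6).
Nfkbia: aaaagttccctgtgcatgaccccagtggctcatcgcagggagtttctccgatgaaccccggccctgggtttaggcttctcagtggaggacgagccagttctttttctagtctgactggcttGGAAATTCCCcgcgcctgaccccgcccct
Rela: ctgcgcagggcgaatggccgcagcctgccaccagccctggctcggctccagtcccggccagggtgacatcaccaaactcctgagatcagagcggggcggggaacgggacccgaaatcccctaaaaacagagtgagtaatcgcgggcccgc
The Nfkbia stretch holds its match at -29 to -20, counted so that -1 is the base before the start. A match describes these letters and does not show that a dimer bound there. Whether a match goes with the size of the response was not tested. Nfkbid, which holds 2 matches, had log2 fold changes at LPS 3h of 2.01 in WT and 1.497 in Irg1-/- cells. Those of Rela, which holds none, were 1.76 and 1.51.

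**Figure D1:**
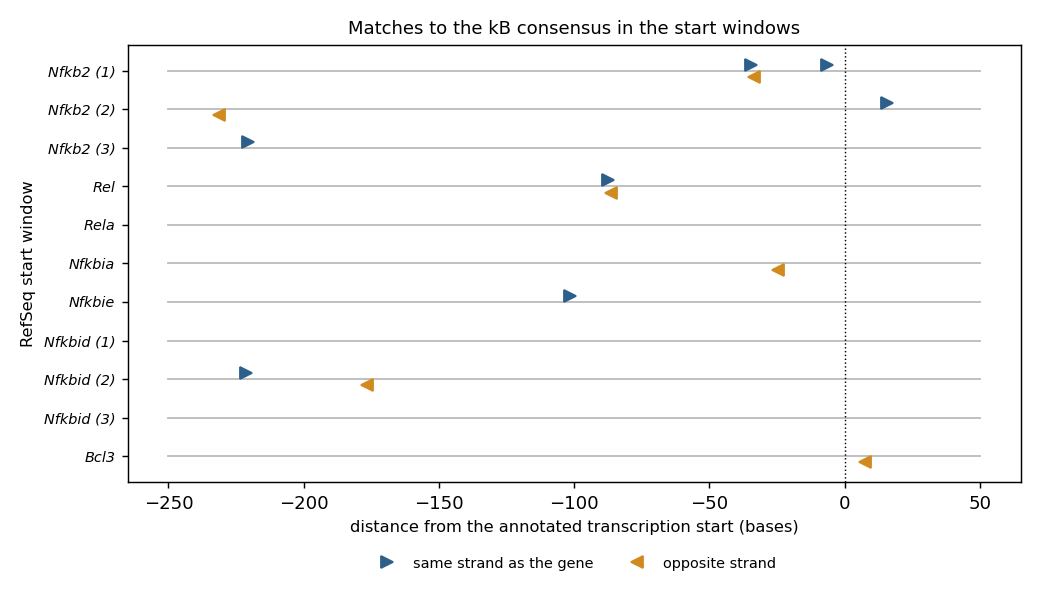
Positions of matches to the κB consensus (triangles) in the 11 RefSeq start windows of 7 genes, as the distance from the annotated start in bases; triangles to the right (blue) are matches on the gene's strand and triangles to the left (orange) matches on the opposite strand, and the starts of genes with several are numbered. Rela and 2 of the 3 Nfkbid windows hold none, and the Nfkbia match lies from -29 to -20.

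Across the treatments, the 10 transcripts followed 1 order with small departures: high at LPS 3h, intermediate in tolerized cells, and lowest at LPS 24h or without LPS. In WT cells, 8 genes ran LPS 3h, LPS 24h->LPS 3h, LPS 24h, Unstim. from high to low by their group means, and Rel and Nfkbid had their lowest mean at LPS 24h. In Irg1-/- cells, 7 genes ran in the first order, and Nfkb1, Rel and Nfkbid had their lowest mean at LPS 24h. The libraries of LPS 3h and of tolerized cells did not overlap for 8 genes in WT cells, all but Rela and Nfkbie (37.5% of all genes tested did not overlap), and for 9 genes in Irg1-/- cells, all but Relb (45.9%). LPS 24h and Unstim. were the neighbours that most often overlapped. They were apart for 6 genes in each genotype, beside 32.7% of all genes in WT and 29.9% in Irg1-/- cells.

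**Figure D2:**
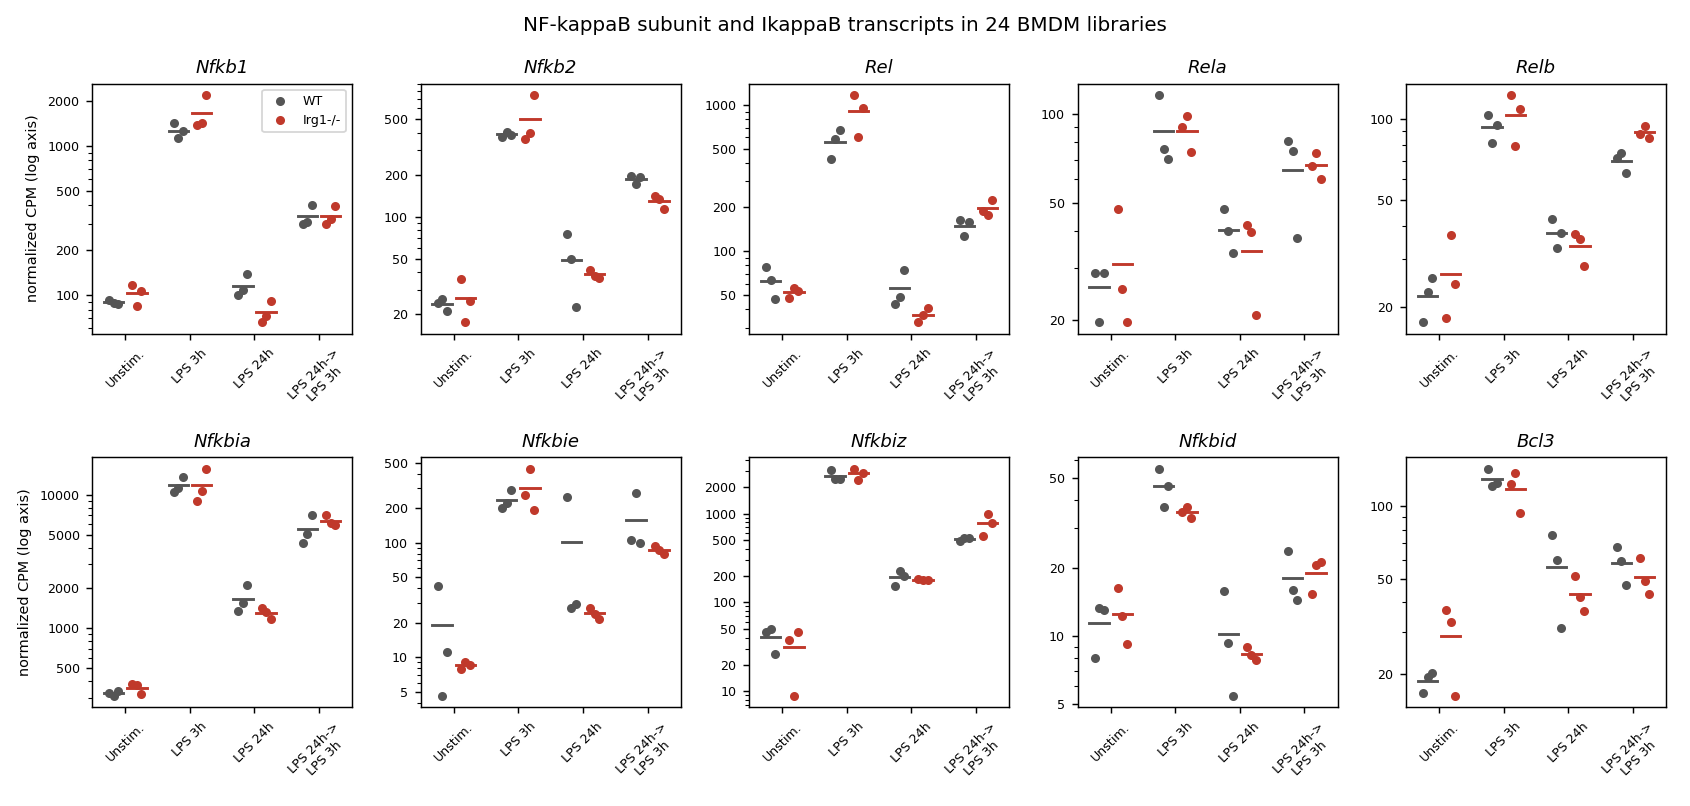
Level of each of the 10 transcripts in every library, in normalized CPM on a log axis that differs between panels; points are libraries, short lines group means, and the 4 treatments of WT (grey) and Irg1-/- cells (red) stand side by side. For Nfkbia, the LPS 3h libraries lie between 8882 and 15610 CPM, above all tolerized libraries (4332 to 7051).

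The first question is what LPS did to the family within 3 h. All 10 genes rose in WT cells at LPS 3h against Unstim., where 15.8% of the 11878 genes tested were called higher, and all 10 rose in Irg1-/- cells, with a background of 17% (edgeR's quasi-likelihood test, adjusted p below 0.05 for each). The median log2 fold change of the 10 genes was 3.39 in WT and 4.06 in Irg1-/- cells, beside -0.18 and -0.20 over all genes tested. The LPS 3h cells also had a medium change and a rest, which the labels do not give for Unstim. and LPS 24h cells, and these steps cannot be told apart from LPS in the comparisons of LPS 3h with either group. In bulk RNA, more RNA per cell and more cells of a type cannot be told apart. The 5 subunits had log2 fold changes of 1.76 to 4.05 in WT cells and the 5 IκB proteins 2.01 to 6.01. In WT cells pool 4 held 1 library at LPS 3h, and within this pool all 10 genes were higher than the mean of the 3 unstimulated libraries. With the pool as a term, Rela and Nfkbid lost their calls in Irg1-/- cells, with log2 fold changes of 1.06 and 1.32 (adjusted p = 0.167 and 0.0643).

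After 24 h of LPS, most of the rise was gone for most of the genes. Against LPS 3h, 9 genes had fallen in WT cells (15.5% of all genes were called lower), all but Nfkbie, and all 10 had fallen in Irg1-/- cells (16.9%), with median log2 fold changes of -2.50 and -3.40 beside 0.14 and 0.15 over all genes. All Irg1-/- libraries at LPS 24h were in pool 1 and those at LPS 3h in pools 2 and 3. In these cells pool and treatment cannot be told apart in this comparison. Against Unstim., 5 genes were still higher in WT cells (Nfkb2, Nfkbia, Nfkbie, Nfkbiz and Bcl3, with a background of 9.25%) and 2 in Irg1-/- cells (Nfkbia and Nfkbiz, with a background of 7.31%). Of the 5 genes called in WT cells, 4 encode IκB proteins. The difference between genotypes in the LPS 24h value against Unstim. was not tested. Nfkbie, not called in Irg1-/- cells, was also higher there in each LPS 24h culture (21.4 to 27.1 CPM) than in any unstimulated culture (7.95 to 9.05). The WT count fell to 3 without unstimulated culture 2 or 3 or without LPS 24h culture 1, with the pool as a term, or when the fit held the compared groups alone. Within pool 4, Nfkb2 at LPS 24h was not higher than in unstimulated WT cells (log2 difference -0.06).

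Restimulation raised part of the family again. Against LPS 24h, tolerized cells had 5 genes called higher in WT (Nfkb1, Nfkb2, Rel, Nfkbia and Nfkbiz), where 2.46% of all genes were called higher, and 7 in Irg1-/- cells (these 5, Relb and Nfkbid), where the background was 3.44%. The median log2 fold change was 1.15 in WT and 1.79 in Irg1-/- cells, beside -0.03 and -0.07 over all genes, and all 10 values were above 0 in both genotypes. When the fit held the compared groups alone, 1 gene was called in WT cells, Nfkbia. The tolerized cells also had a medium change and a rest that the LPS 24h cells did not, which cannot be told apart from the second LPS.

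The level after the second LPS was below the level after the first for most of the family. Tolerized cells were lower than LPS 3h cells for 7 genes in WT (all but Rela, Relb and Nfkbie, with 13.1% of all genes called lower) and for 8 genes in Irg1-/- cells (all but Rela and Relb, with 14.1%), and the median log2 fold changes were -1.13 and -1.50, beside 0.13 and 0.12 over all genes. No gene of the family was higher in tolerized cells. In Irg1-/- cells the compared groups shared only pool 2, with 1 library of each. With 1 culture left out the Irg1-/- count was 5 to 7, and it was 5 without tolerized culture 2 or without tolerized culture 3. Nfkbia and Nfkbie lost their calls in Irg1-/- cells with the pool as a term. Since the comparisons share groups (LPS 3h, LPS 24h and the tolerized cells each enter more than 1), their counts are not independent of each other.

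**Figure D3:**
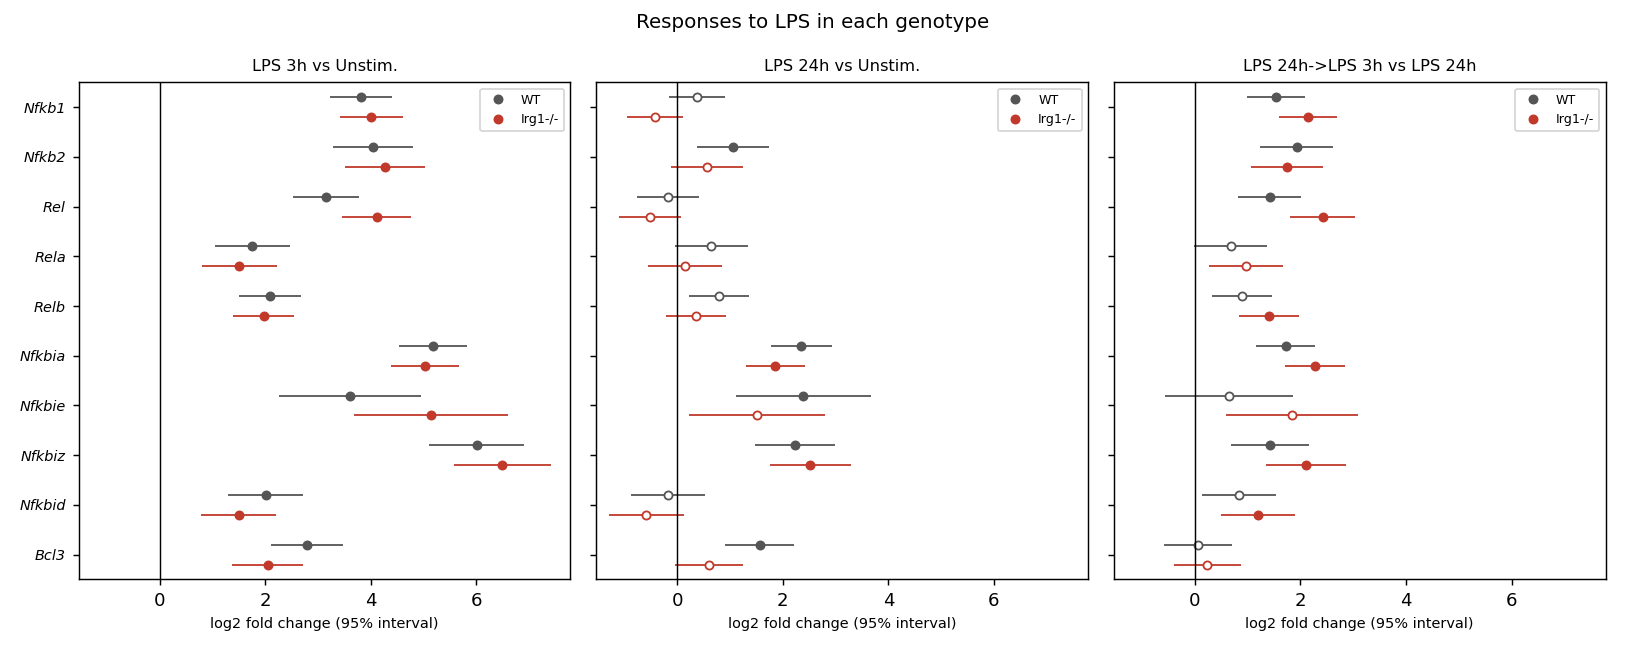
Log2 fold changes with 95% intervals of the 10 genes for LPS 3h against Unstim., LPS 24h against Unstim. and restimulated (LPS 24h->LPS 3h) against LPS 24h cells, for WT (grey) and Irg1-/- cells (red); filled points passed an adjusted p of 0.05 and open points did not. All 20 points of the LPS 3h panel are filled, while 7 of 20 are filled at LPS 24h and 12 of 20 after restimulation.

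Among the subunits, Nfkb1 encodes the precursor of p50, the partner of RelA and c-Rel in the dimers that LPS first releases. In WT cells its level was 92.9, 89.1 and 87.3 CPM in the 3 unstimulated cultures, 1415, 1123 and 1251 at LPS 3h, 101, 108 and 139 at LPS 24h and 300.3, 308 and 402 in tolerized cells. None of these groups overlapped, and tolerized cells stood between LPS 24h and LPS 3h. In Irg1-/- cells it was 118, 85.2 and 106 CPM without LPS, 1373, 1429 and 2190.3 at LPS 3h, 66.1, 72.8 and 92.3 at LPS 24h and 300, 323 and 398 in tolerized cells. Here LPS 24h overlapped with Unstim., and LPS 3h and the tolerized cells were each apart from the rest. The log2 fold change at LPS 3h was 3.81 ± 0.29, adjusted p = 3.72e-12 in WT and 4.01 ± 0.29, adjusted p = 1.65e-12 in Irg1-/- cells (value ± SE). After restimulation Nfkb1 was 2.91-fold and 4.41-fold higher than at LPS 24h (1.54 ± 0.27, adjusted p = 0.000383 in WT and 2.14 ± 0.27, adjusted p = 1.65e-06 in Irg1-/- cells), and it reached 26.7% and 20.5% of its LPS 3h level (log2 fold change -1.91 ± 0.27, adjusted p = 3.2e-06 in WT and -2.29 ± 0.27, adjusted p = 1.58e-07 in Irg1-/- cells).

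Nfkb2 encodes p100, which is both an inhibitor and the precursor of p52, the partner of RelB in the slower, noncanonical branch. WT cells had 24.2, 25.7 and 21.02 CPM without LPS, 374, 408 and 389 at LPS 3h, 75.1, 49.4 and 22.6 at LPS 24h and 195, 173 and 192 when tolerized. LPS 24h culture 3 lay within the unstimulated range, and the tolerized cells were above all LPS 24h cultures. Irg1-/- cells had 35.7, 17.5 and 24.9 CPM without LPS, 364, 399 and 748 at LPS 3h, 41.7, 37.4 and 36.6 at LPS 24h and 141, 135 and 113 in tolerized cells, with no overlap between the treatments. The rise at LPS 3h was 4.04 ± 0.37, adjusted p = 2.21e-10 on the log2 scale in WT and 4.27 ± 0.37, adjusted p = 9.8e-11 in Irg1-/- cells. At LPS 24h the value against Unstim. was 1.05 ± 0.33, adjusted p = 0.0267 in WT cells, and it was 0.57 ± 0.33, adjusted p = 0.303 in Irg1-/- cells. The WT call was lost when any 1 of 5 of the 6 cultures was left out (0.59, adjusted p = 0.267, without LPS 24h culture 1), with the pool as a term (0.72, adjusted p = 0.225) and when the fit held the compared groups alone (adjusted p = 0.0893). Restimulated cells reached 47.8% of the LPS 3h level in WT (-1.06 ± 0.33, adjusted p = 0.0167) and 25.8% in Irg1-/- cells (-1.96 ± 0.34, adjusted p = 4.96e-05). The difference between genotypes in this log2 fold change was -0.89 ± 0.46 and did not pass the test (adjusted p = 0.72).

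Rel encodes c-Rel, a transactivating subunit that blood cells express and that lymphocytes and macrophages induce on activation. Its WT levels were 77.7, 63.8 and 47.3 CPM without LPS, 424, 586 and 675 at LPS 3h, 43.5, 49.0 and 74.8 at LPS 24h and 163, 126 and 158 in tolerized cells. LPS 24h and Unstim. overlapped, and the other groups did not. The Irg1-/- levels were 48.2, 56.0 and 53.4 CPM without LPS, 1170.2, 606 and 952 at LPS 3h, 32.7, 36.6 and 40.9 at LPS 24h and 189.7, 177 and 223 in tolerized cells. In these cells the LPS 24h cultures were all below the unstimulated cultures, but the log2 fold change of -0.52 ± 0.29 did not pass the test (adjusted p = 0.271). Rel rose 8.93-fold at LPS 3h in WT (log2 fold change 3.16 ± 0.31, adjusted p = 8.41e-10) and 17.3-fold in Irg1-/- cells (4.11 ± 0.32, adjusted p = 7.64e-12). With restimulation it rose 2.67-fold in WT (1.42 ± 0.29, adjusted p = 0.00279) and 5.35-fold in Irg1-/- cells (2.42 ± 0.30, adjusted p = 1.08e-06). It came to 26.5% and 21.6% of the LPS 3h level (-1.92 ± 0.29, adjusted p = 1.08e-05 and -2.21 ± 0.30, adjusted p = 1.18e-06).

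Rela encodes RelA, the main transactivating subunit of the canonical dimer, which most cells express without a stimulus. WT cells had 28.9, 19.7 and 28.8 CPM when unstimulated, 116, 75.7 and 70.5 at LPS 3h, 47.6, 40.0 and 33.7 at LPS 24h and 81.0, 75.1 and 38.0 when tolerized. Tolerized culture 3 lay among the LPS 24h cultures and the other tolerized cultures among those at LPS 3h. Irg1-/- cells had 47.7, 25.4 and 19.6 CPM without LPS, 90.3, 98.5 and 74.4 at LPS 3h, 42.1, 39.7 and 20.9 at LPS 24h and 66.7, 74.0 and 60.3 in tolerized cells, where LPS 24h and Unstim. overlapped and the other groups did not. Rela had the smallest rise of the subunits at LPS 3h, 1.76 ± 0.35, adjusted p = 0.000174 in WT and 1.51 ± 0.35, adjusted p = 0.00094 in Irg1-/- cells. It fell again by LPS 24h (-1.11 ± 0.34, adjusted p = 0.013 against LPS 3h in WT and -1.36 ± 0.34, adjusted p = 0.00248 in Irg1-/- cells), and the WT call was lost without LPS 3h culture 1 (adjusted p = 0.0533). Neither restimulation (0.68 ± 0.34, adjusted p = 0.317 in WT and 0.97 ± 0.34, adjusted p = 0.106 in Irg1-/- cells) nor tolerance (-0.43 ± 0.34, adjusted p = 0.363 against LPS 3h in WT and -0.39 ± 0.34, adjusted p = 0.411 in Irg1-/- cells) gave a difference past the threshold. DESeq2's Wald test called restimulation in Irg1-/- cells (adjusted p = 0.0473), as did the fit of the compared groups alone (adjusted p = 0.041).

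Relb encodes RelB, which pairs with p52 or p50 and is itself induced by canonical NF-κB. In WT cells it stood at 17.5, 22.7 and 25.5 CPM without LPS, 104, 81.6 and 95.4 at LPS 3h, 42.5, 33.2 and 37.5 at LPS 24h and 71.8, 74.8 and 63.0 in tolerized cells, and no groups overlapped. In Irg1-/- cells it stood at 18.2, 37.1 and 24.4 CPM without LPS, 123, 79.4 and 109 at LPS 3h, 37.3, 35.6 and 28.4 at LPS 24h and 88.0, 94.3 and 85.0 in tolerized cells. All tolerized Irg1-/- cultures fell inside the range of the LPS 3h cultures, and LPS 24h overlapped with Unstim. The log2 fold change at LPS 3h was 2.09 ± 0.29, adjusted p = 6.84e-07 in WT and 1.97 ± 0.29, adjusted p = 1.96e-06 in Irg1-/- cells. Restimulation raised Relb in Irg1-/- cells (1.40 ± 0.28, adjusted p = 0.00142), and the WT value of 0.89 ± 0.28 missed the threshold (adjusted p = 0.0665), while DESeq2's Wald test called it (0.90, adjusted p = 0.0084). Tolerized cells had 74.8% of the LPS 3h level in WT and 85.9% in Irg1-/- cells, and the intervals of the log2 fold change (-0.98 to 0.14 and -0.78 to 0.34) included 0.

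Turning to the cytoplasmic inhibitors, Nfkbia encodes IκBα, the best known feedback inhibitor, which is degraded and resynthesized with each pulse of NF-κB. WT libraries held 328, 309.8 and 337 CPM without LPS, 10408, 11117 and 13652 at LPS 3h, 1349.7, 1534 and 2095 at LPS 24h and 4332, 5083 and 7051 in tolerized cells. Irg1-/- libraries held 378, 377 and 321 CPM without LPS, 8882, 10704 and 15610 at LPS 3h, 1412, 1321 and 1167 at LPS 24h and 6996, 6112 and 5880.4 in tolerized cells. The 4 treatments were apart from each other in both genotypes, with Unstim. lowest. Nfkbia rose 36.1-fold at LPS 3h in WT (5.17 ± 0.32, adjusted p = 2.85e-14) and 32.7-fold in Irg1-/- cells (5.03 ± 0.32, adjusted p = 6.36e-14). It stayed 5.11-fold above Unstim. at LPS 24h in WT (2.35 ± 0.28, adjusted p = 1.21e-07) and 3.63-fold in Irg1-/- cells (1.86 ± 0.28, adjusted p = 6.72e-06). Restimulation raised it by a log2 fold change of 1.73 ± 0.27, adjusted p = 0.000131 in WT and 2.28 ± 0.28, adjusted p = 9.36e-07 in Irg1-/- cells. Tolerized cells had 46.8% of the LPS 3h level in WT (-1.09 ± 0.27, adjusted p = 0.0029) and 54.0% in Irg1-/- cells (-0.89 ± 0.27, adjusted p = 0.0131). In Irg1-/- cells this last call was lost with the pool as a term (-0.37, adjusted p = 0.517), without LPS 3h culture 3 (-0.65, adjusted p = 0.109), without tolerized culture 2 or 3 (adjusted p = 0.0511 and 0.0504) and without a filter on low counts (adjusted p = 0.0528).

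Nfkbie encodes IκBε, a slower inhibitor that is also induced by NF-κB. In 3 of the 4 treatments, all but LPS 3h, it had the highest coefficient of variation of the 10 genes between WT cultures. The WT levels were 41.9, 4.58 and 11.2 CPM without LPS, 202, 221 and 286 at LPS 3h, 248, 26.9 and 29.2 at LPS 24h and 106, 269.8 and 99.0 in tolerized cells. Unstimulated culture 1, LPS 24h culture 1 and tolerized culture 2 each stood well above the other cultures of their group. The Irg1-/- cultures were 7.95, 9.05 and 8.51 CPM without LPS, 261, 441 and 193 at LPS 3h, 27.1, 24.0 and 21.4 at LPS 24h and 94.2, 86.4 and 78.9 in tolerized cells, with no overlap between treatments. At LPS 3h the gene rose by 3.61 ± 0.66, adjusted p = 5.92e-05 on the log2 scale in WT and 5.13 ± 0.72, adjusted p = 9.08e-07 in Irg1-/- cells. The WT value at LPS 24h against Unstim. was 2.39 ± 0.63, adjusted p = 0.00686, and without LPS 24h culture 1 it was 0.54 (adjusted p = 0.549). This call was also lost without unstimulated culture 2 or 3 (adjusted p = 0.0536 and 0.0546). In Irg1-/- cells the same comparison was not called. It passed there when the fit held the compared groups alone (1.49, adjusted p = 0.00465) and without a filter on low counts (1.52, adjusted p = 0.000279). Over all alternatives the Irg1-/- value ranged from 0.556 to 1.59. Against LPS 3h the WT value at LPS 24h was -1.22 ± 0.60, adjusted p = 0.118, and without LPS 24h culture 1 it was -3.12 (adjusted p = 0.000143). Restimulation gave 0.65 ± 0.60, adjusted p = 0.662 in WT, 2.49 without that culture (adjusted p = 0.00763), and 1.84 ± 0.61, adjusted p = 0.0847 in Irg1-/- cells, where the fit of the compared groups alone (adjusted p = 0.000358) and the fit without a filter on low counts (adjusted p = 6.88e-06) called it. Tolerized cells were 3.45-fold lower than LPS 3h in Irg1-/- cells (-1.79 ± 0.61, adjusted p = 0.0282), a call lost when any 1 of 4 single cultures was left out and with the pool as a term, while the WT value was -0.58 ± 0.59, adjusted p = 0.503.

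Among the nuclear IκB proteins, Nfkbiz encodes IκBζ, a coactivator that is made on stimulation and is needed for a set of secondary response genes. WT levels were 46.8, 50.6 and 26.6 CPM without LPS, 3079, 2437 and 2464 at LPS 3h, 154, 226 and 199.7 at LPS 24h and 494, 533 and 528 in tolerized cells. Irg1-/- levels were 38.2, 8.86 and 46.4 CPM without LPS, 3189, 2411 and 2877 at LPS 3h, 184, 177 and 178 at LPS 24h and 557, 978 and 788 in tolerized cells. In both genotypes the 4 treatments were apart, and the gene had the largest log2 fold change of the 10 at LPS 3h, 6.01 ± 0.44, adjusted p = 1.53e-12 in WT and 6.49 ± 0.45, adjusted p = 5.64e-13 in Irg1-/- cells. At LPS 24h it remained 4.69-fold above Unstim. in WT (2.23 ± 0.37, adjusted p = 3.53e-05) and 5.73-fold in Irg1-/- cells (2.52 ± 0.38, adjusted p = 7.93e-06). Restimulation raised it again (1.42 ± 0.36, adjusted p = 0.0192 in WT and 2.11 ± 0.37, adjusted p = 0.000281 in Irg1-/- cells), and the WT call was lost without LPS 24h culture 1 or 3 (adjusted p = 0.0722 and 0.0526) and when the fit held the compared groups alone (adjusted p = 0.078). In WT cells it was the gene of the 10 with the lowest tolerized level relative to LPS 3h, 19.5% (-2.36 ± 0.37, adjusted p = 1.66e-05), and in Irg1-/- cells the share was 27.4% (-1.87 ± 0.37, adjusted p = 0.000246).

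Nfkbid encodes IκBNS, a nuclear regulator that is induced by LPS and dampens a subset of inflammatory genes. Its counts were low, from 57 to 348 per library. WT cultures had 7.99, 13.4 and 13.1 CPM without LPS, 55.0, 37.3 and 46.1 at LPS 3h, 15.8, 9.29 and 5.44 at LPS 24h and 23.8, 16.1 and 14.5 in tolerized cells, and only LPS 3h was apart from all other groups. Irg1-/- cultures had 16.4, 12.3 and 9.21 CPM without LPS, 35.5, 37.3 and 33.2 at LPS 3h, 8.99, 8.27 and 7.82 at LPS 24h and 15.3, 20.7 and 21.3 in tolerized cells, where tolerized cells overlapped with Unstim. but not with LPS 24h. The log2 fold change at LPS 3h was 2.01 ± 0.35, adjusted p = 3.04e-05 in WT and 1.497 ± 0.35, adjusted p = 0.00105 in Irg1-/- cells. After restimulation the value was 1.19 ± 0.34, adjusted p = 0.0349 in Irg1-/- cells, lost when any 1 of 5 single cultures was left out, and 0.83 ± 0.34, adjusted p = 0.203 in WT cells, where it passed without LPS 24h culture 1 (1.30, adjusted p = 0.0374). Against LPS 3h, tolerized cells were at 39.2% in WT (-1.35 ± 0.34, adjusted p = 0.00382) and 54.0% in Irg1-/- cells (-0.89 ± 0.34, adjusted p = 0.0494), the latter call being lost with any 1 of the 6 cultures left out.

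Bcl3 encodes Bcl-3, which binds p50 and p52 homodimers in the nucleus and is known to restrain inflammatory genes in macrophages. WT cultures had 16.7, 19.6 and 20.2 CPM without LPS, 143, 122 and 125 at LPS 3h, 76.2, 59.5 and 31.3 at LPS 24h and 67.7, 59.1 and 47.0 in tolerized cells. The tolerized cultures lay inside the range of LPS 24h, and both were apart from Unstim. and from LPS 3h. Irg1-/- cultures had 37.1, 33.0 and 16.3 CPM without LPS, 123, 137 and 93.9 at LPS 3h, 51.1, 41.9 and 36.6 at LPS 24h and 60.7, 48.7 and 43.2 in tolerized cells, and here LPS 24h overlapped with Unstim. as well. The log2 fold change at LPS 3h was 2.78 ± 0.33, adjusted p = 6.17e-08 in WT and 2.04 ± 0.33, adjusted p = 8.5e-06 in Irg1-/- cells. At LPS 24h Bcl3 was still 2.95-fold above Unstim. in WT cells (1.56 ± 0.32, adjusted p = 0.00058), and the Irg1-/- value was 0.59 ± 0.32, adjusted p = 0.245. The second LPS gave the smallest log2 fold changes of the 10 genes, 0.06 ± 0.31 in WT and 0.24 ± 0.31 in Irg1-/- cells (adjusted p = 0.962 and 0.833). Tolerized cells were at 44.6% of LPS 3h in WT (-1.17 ± 0.32, adjusted p = 0.0066) and at 43.1% in Irg1-/- cells (-1.22 ± 0.32, adjusted p = 0.00448).

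**Figure D4:**
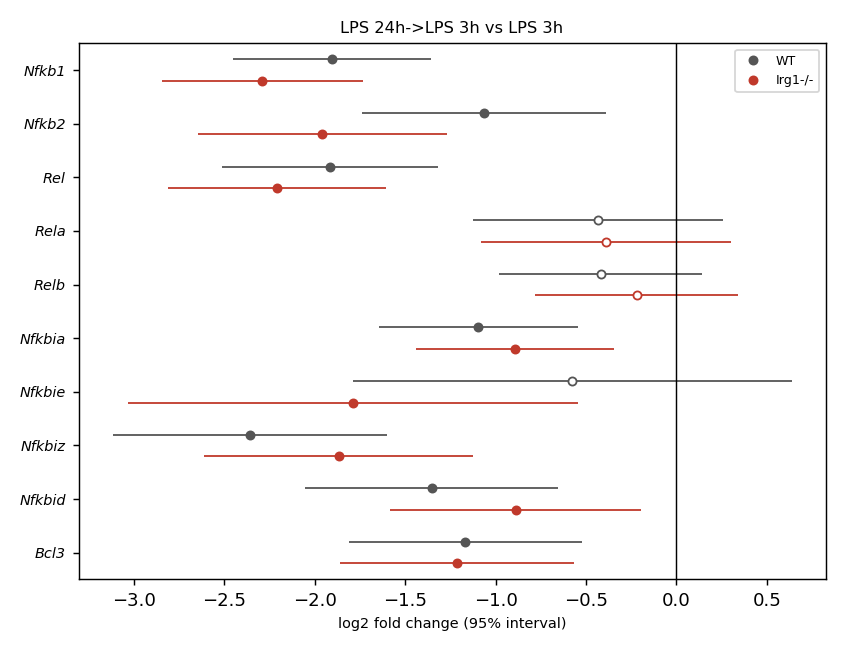
Log2 fold changes with 95% intervals of tolerized (LPS 24h->LPS 3h) against non-tolerized (LPS 3h) cells for the 10 genes in WT (grey) and Irg1-/- cells (red); filled points passed an adjusted p of 0.05. Every point lies below 0, and the open points are Rela and Relb in both genotypes and Nfkbie in WT cells.

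The next question is whether the loss of Irg1 changed any of these transcripts. None of the 10 genes passed the test between genotypes in Unstim. (0.0421% of all genes tested were called in either direction), at LPS 3h (0.00842%), at LPS 24h (0.598%) or in tolerized cells (0.118%). At an unadjusted p under 0.05 the counts were 0, 1, 3 and 0 of 10, and DESeq2's Wald test also called 0 in each treatment. The share of all genes under the unadjusted rule was not counted, so these counts cannot be set against a background. With 3 cultures against 3, an exact permutation test cannot give a p under 0.1, also for a gene whose genotypes do not overlap.

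At LPS 3h the genotypes overlapped for 9 of the 10 genes and were apart for 1, beside 9.08% of all genes tested that were apart. Of the Irg1-/- libraries of this treatment, 2 were in pool 3, which held no WT library. The comparison thus rests mostly on libraries of different pools. Rel was the 1 gene under an unadjusted p of 0.05, with 424, 586 and 675 CPM in WT and 1170.2, 606 and 952 in Irg1-/- cells, and a log2 fold change of Irg1-/- against WT of 0.70 (95% interval 0.12 to 1.27, adjusted p = 0.733). For Nfkbia the difference was 0.00 with an interval of -0.54 to 0.54, and for Rela 0.01 with an interval of -0.68 to 0.70. Nfkbid was the gene whose genotypes did not overlap, with all Irg1-/- cultures lower (-0.38, interval -1.07 to 0.30). The margin was narrow, with 37.317 CPM in the highest Irg1-/- culture and 37.34 in the lowest WT culture.

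At LPS 24h all 10 differences were below 0, with a median log2 fold change of -0.35 beside -0.01 over all genes. Nfkb1 and Rel were lower in each Irg1-/- culture than in any WT culture (16.5% of all genes were apart), with log2 fold changes of -0.59 ± 0.26 and -0.60 ± 0.29 (adjusted p = 0.43 and 0.472). Nfkbie had the largest difference, -2.06 (95% interval -3.33 to -0.80, adjusted p = 0.152), and without WT culture 1 it was -0.23 (adjusted p = 0.908). All 3 Irg1-/- libraries at LPS 24h were in pool 1, which held 1 WT library of this treatment, so that the comparison rests mostly on libraries of different pools. Within pool 1 the differences ranged from -3.35 to 0.22.

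In tolerized cells 7 of the 10 differences were above 0, and the median was 0.06 beside -0.03 over all genes. Nfkb2 (113 to 141 CPM in Irg1-/- against 173 to 195 in WT cells) and Nfkbie (78.9 to 94.2 against 99.0 to 269.8) were lower in each Irg1-/- culture, with log2 fold changes of -0.53 ± 0.33 and -0.87 ± 0.60. Rel, Relb and Nfkbiz were higher in each Irg1-/- culture, by 0.40 ± 0.28, 0.35 ± 0.27 and 0.58 ± 0.35 on the log2 scale. The adjusted p of these 5 genes ranged from 0.761 to 0.845, and 12.9% of all genes tested were apart. Unstimulated cells overlapped between genotypes for all 10 genes, beside 9.44% of all genes that were apart, and Nfkbie (-1.18, interval -2.46 to 0.10) and Bcl3 (0.60, interval -0.05 to 1.25) had the largest differences.

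**Figure D5:**
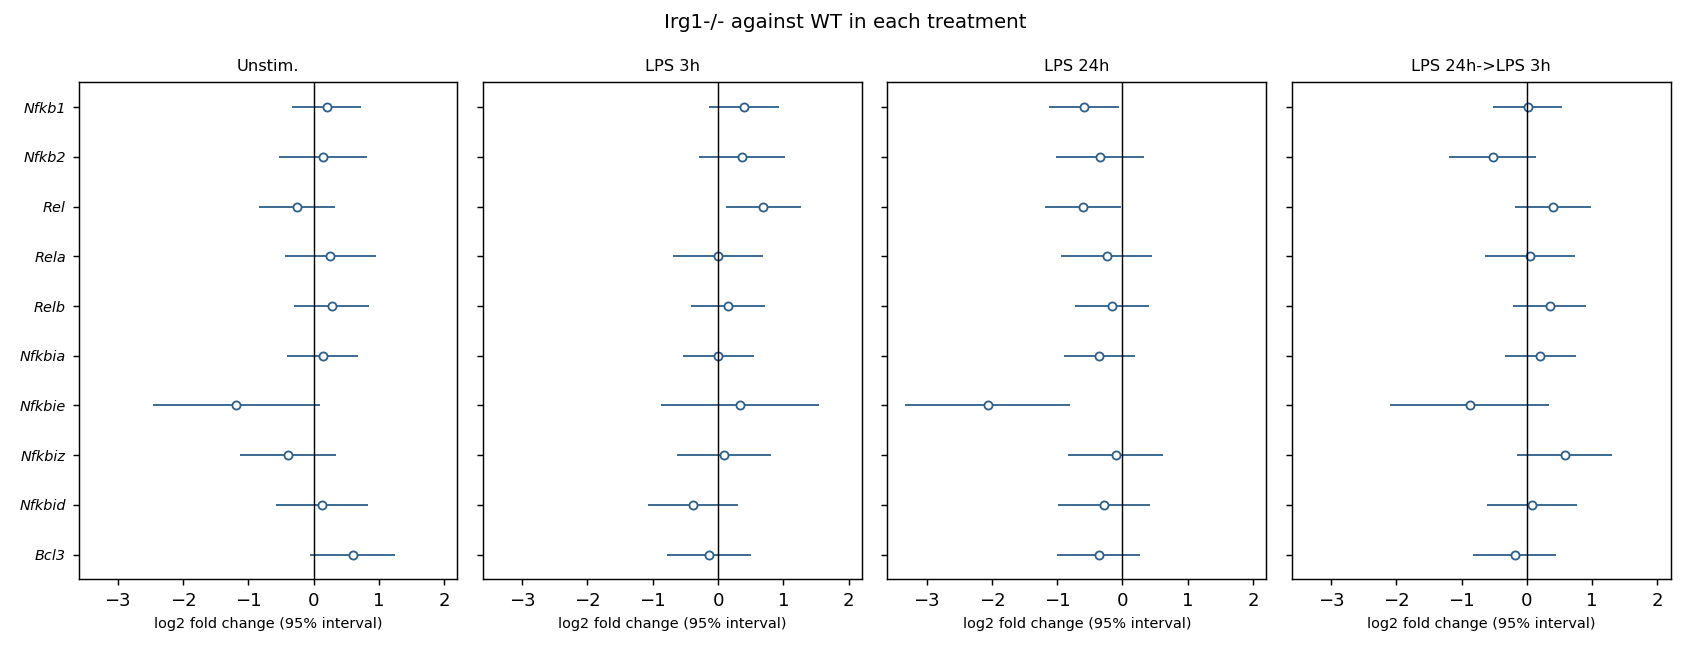
Log2 fold changes of Irg1-/- against WT cells with 95% intervals for the 10 genes in each of the 4 treatments; all 40 points are open because none passed an adjusted p of 0.05. At LPS 24h all 10 points lie below 0, with Nfkbie lowest at -2.06.

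The difference between genotypes was also tested as an interaction for 3 responses. Those of LPS 24h against Unstim. and against LPS 3h were not tested in this way. None of the 10 genes passed for LPS 3h against Unstim. (0.00842% of all genes called), for restimulation (0.00842%) or for tolerized against non-tolerized cells (0%), and DESeq2's Wald test called 0 in each. At an unadjusted p under 0.05 there were 1, 1 and 0 genes, again without a counted share of all genes. Rel was the gene at the first LPS and at restimulation. Its response was larger in Irg1-/- cells by 0.96 ± 0.40 on the log2 scale at the first LPS and by 1.00 ± 0.40 at the second (adjusted p = 0.799 and 0.465). After restimulation, 9 of the 10 interaction values were above 0, with a median of 0.54 beside -0.01 over all genes, and they rest on the same LPS 24h libraries as the genotype comparison above. The interaction of Nfkbie was 1.52 ± 0.86 for the first response (adjusted p = 0.904) and ranged from 0.253 to 1.98 with 1 library left out.

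Around the family, 11 genes of the IκB kinase, of kinases linked to it and of their adaptors were all measured. At LPS 3h, 6 were higher and 2 lower in WT cells, and 5 were higher and 2 lower in Irg1-/- cells. Of all genes tested, 15.8% were called higher and 16.3% lower in WT cells, and 17% higher and 18.9% lower in Irg1-/- cells. The 11 genes had a median log2 fold change of 1.19 in WT and 0.46 in Irg1-/- cells. Tab2, an adaptor of the TAK1 kinase (2.74 ± 0.30, adjusted p = 1.26e-08 in WT), and Map3k8, the kinase Tpl2 that p105 binds (2.60 ± 0.28, adjusted p = 5.62e-09), rose, while Tab1, another TAK1 adaptor (-2.50 ± 0.72, adjusted p = 0.00761), and Map3k14, the kinase of the noncanonical branch (-1.997 ± 0.38, adjusted p = 0.000119), fell. After restimulation none of the 11 was called in either genotype, beside 2.46% of all genes called higher in WT and 3.44% in Irg1-/- cells. At an unadjusted p under 0.05 there were 1 in WT and 2 in Irg1-/- cells, without a counted share of all genes. Map3k8 was 6.88-fold lower in tolerized than in LPS 3h WT cells (-2.78 ± 0.28, adjusted p = 1.15e-08).

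Of 14 genes of the ubiquitin machinery that relays or stops the signal, 8 were higher and 1 lower in WT cells at LPS 3h (15.8% and 16.3% of all genes), and 7 were higher in Irg1-/- cells (17% of all genes). Traf1, a signalling adaptor (6.64 ± 0.43, adjusted p = 8.82e-14), Tnfaip3, the deubiquitinase A20 (6.58 ± 0.51, adjusted p = 4.82e-12), and Birc3, the ubiquitin ligase cIAP2 (2.94 ± 0.28, adjusted p = 7.1e-10), rose in WT cells, as did Traf2, an adaptor (2.65 ± 0.31, adjusted p = 3.1e-08). After restimulation 2 of the 14 rose in WT cells (2.46% of all genes), Traf1 (2.09 ± 0.35) and Tnfaip3 (1.49 ± 0.41), and 3 rose in Irg1-/- cells (3.44%), these and Birc3. Traf1 was lower in Irg1-/- than in WT cells at LPS 24h (-1.45 ± 0.34, adjusted p = 0.037), the only one of the 14 called between genotypes in any treatment. At LPS 24h, 0.598% of all genes were called in either direction. This comparison rests mostly on libraries of different pools, and the call of Traf1 under the alternatives is not given here. Nfkbib, which encodes IκBβ, a further cytoplasmic inhibitor, rose at LPS 3h in both genotypes (3.68 ± 0.41, adjusted p = 1.31e-08 in WT and 2.45 ± 0.39, adjusted p = 8.18e-06 in Irg1-/- cells). At LPS 24h it was above Unstim. in WT cells (1.61 ± 0.38, adjusted p = 0.00282), and the Irg1-/- value was 0.09 ± 0.37, adjusted p = 0.925. The unstimulated Irg1-/- cultures had 27.4, 10.6 and 9.42 CPM, so that culture 1 raised their mean. Irg1-/- against WT cells at LPS 24h gave -0.60 (adjusted p = 0.647 in the same test). The difference between genotypes in the LPS 24h value against Unstim. was not tested.

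Downstream, all 10 genes of a list of early NF-κB targets rose at LPS 3h in both genotypes, with median log2 fold changes of 8.76 and 8.06 (15.8% and 17% of all genes were called higher). Il1b, the precursor of interleukin-1β, rose by 10.10 ± 0.44, adjusted p = 3.71e-17 in WT cells, and Cxcl2, Cxcl1 and Ptgs2 rose by 9.83 ± 0.43, 9.78 ± 0.63 and 9.66 ± 0.58. Restimulation raised 8 of the 10 in each genotype, beside 2.46% of all genes in WT and 3.44% in Irg1-/- cells. Tolerized cells were lower than LPS 3h for 9 of the 10 in WT (13.1% of all genes) and for 8 of the 10 in Irg1-/- cells (14.1%). Between genotypes 3 of the 10 were called, all lower in Irg1-/- cells at LPS 24h, where 0.598% of all genes were called in either direction: Ptgs2 (-2.06 ± 0.41, adjusted p = 0.0147), Cxcl2 (-1.60 ± 0.30, adjusted p = 0.0107) and Ccl4 (-1.66 ± 0.32, adjusted p = 0.0107), the last named after its values were seen. This comparison rests mostly on libraries of different pools. Over all genes it had 12 higher and 59 lower calls. With the pool as a term there were 2 and 10, and with only the compared groups 2 and 1. The calls of Ptgs2, Cxcl2 and Ccl4 under these alternatives are not given here.

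Of 5 genes known to need IκBζ, 4 passed the filter on low counts. Il12b was 71.5-fold lower in tolerized than in LPS 3h WT cells (-6.16 ± 0.50, adjusted p = 3.8e-10) and Il6 13.8-fold lower (-3.78 ± 0.54, adjusted p = 3.58e-06). Lcn2, the siderophore-binding protein lipocalin 2, rose by 1.97 ± 0.34, adjusted p = 2.64e-05 at LPS 3h and was 4.20-fold higher in tolerized than in LPS 3h WT cells (2.07 ± 0.34, adjusted p = 2.8e-05) and 2.70-fold higher in Irg1-/- cells (1.43 ± 0.33, adjusted p = 0.00151). Csf3, which encodes G-CSF and is named after its values were seen, was at 2.92 CPM or less in each WT library, and its value for tolerized against LPS 3h cells was also above 0 without passing the test (adjusted p = 0.0615 in WT and 0.0502 in Irg1-/- cells). Nfkbiz itself was lower in tolerized cells of both genotypes, as given above. These lists were chosen with earlier results of these data known, and their counts describe the pathway only.

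Finally, the genes with the most similar pattern were sought for each of the 10. Likeness was the root mean square difference of the 8 centred group means of log2 CPM, and neighbours were sought for each gene whose group means spanned at least 2 on the log2 scale, which left out Rela with a span of 1.77. Within the family, where the span rule was not applied, the closest pairs were Nfkb1 with Rel and Rela with Relb (0.20 for both). The measure is not scaled to the span, which was small for Rela and Relb (1.77 and 2.23). Outside it, Ptch1 was nearest to both Nfkb1 (0.23) and Nfkb2 (0.24), Ptx3 to Rel (0.28) and Akna to Relb (0.17). Jak2 was nearest to Nfkbia (0.25), Src to Nfkbie (0.30), Hcar2 to Nfkbiz (0.35), Ammecr1 to Nfkbid (0.14) and Tor1aip2 to Bcl3 (0.15). The group means share libraries and pools, and the measure says nothing of shared function.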

How the data were processed

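RNA from 24 BMDM cultures was made into barcoded 3′ end libraries from oligo-dT primed cDNA, pooled, amplified and, by the study's methods, sequenced paired-end. The labels describe the demultiplexed reads as single-end. The authors aligned reads to mm10 with STAR and deposited raw counts per gene. The counting tool, annotation and use of strand are not given in the sources used here. No molecular identifiers were used, so that amplified copies count as reads. The 5 summary lines of each column stayed out of library sizes (22.1 to 33.7% of a column fell on no feature and 15.1 to 22.5% were not unique). Gene symbols came from GENCODE M21 for 21822 of 22165 rows.

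Counts were normalized by TMM, filtered by edgeR's filterByExpr to 11878 genes, and tested with edgeR's quasi-likelihood test (edgeR 4.0.16, R 4.3.3) in 1 fit of all 8 groups, with Benjamini-Hochberg adjustment over all genes tested in each comparison and a threshold of 0.05. CPM values are TMM-normalized counts relative to library size. The SE was derived from the F statistic, and intervals are at 95%. The common biological coefficient of variation was 0.378. Over the 10 genes, 40 genotype tests and 30 interaction tests were made. No pair of replicates was a duplicate (chi-square per degree of freedom of at least 29.1). Alternatives were DESeq2 1.42.0, its size factors, other filters, only the compared groups, the replicate number or library pool as a term, and each library left out. On simulated data, 82 of 200 changed genes and 1 unchanged gene were called among 11480 for LPS 3h against Unstim. in WT cells, and 0 without a change. The 10 genes and the pathway lists were chosen with earlier results of these data known. Named outside the 10 genes are Acod1, Nfkbib, from each pathway list the up to 4 genes with the largest called log2 fold change at LPS 3h in WT cells, and the nearest neighbours by likeness of pattern. The library pool was taken from a numbered prefix of the sample descriptions, whose meaning the labels do not state. Promoter windows came from RefSeq (GRCm38.p6). Figures were drawn with matplotlib 3.10.9.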

Additional observations from a re-analysis of the deposited data

How the results depend on the processing

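The 73 called values of the 10 genes were each recomputed under 13 alternatives, left-out libraries included, which gave 949 values. Of these, 906 kept direction and call, 43 kept direction only and 0 reversed. DESeq2's Wald test, DESeq2's size factors and a filter at a mean of at least 10 counts kept all 73 calls. Uncalled values gained a call in 17 cases. DESeq2's Wald test called Relb in WT cells at LPS 24h against Unstim. (adjusted p = 0.017) and after restimulation (0.0084), and Rela in restimulated Irg1-/- cells (0.0473). The cause of the changes below was not tested. With the pool as a term, and when the fit held the compared groups alone, 3 of the 10 genes were called in WT cells at LPS 24h against Unstim., and 3 to 5 with 1 library left out. With only the compared groups, 1 gene was called in WT cells after restimulation (4 to 6 with 1 library left out). The count for tolerized against LPS 3h Irg1-/- cells was 5 to 7 with 1 library left out. Without a filter on low counts, 1 gene, Nfkbie, was called between genotypes at LPS 24h.

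By a rule that asked for all 3 correlations over 0.1, the replicate numbers paired the cultures in none of 14 comparisons. Deviations of cultures with the same number correlated at -0.102 to 0.337. The highest value was that of number 3 in restimulated against LPS 24h Irg1-/- cells, where unlike numbers reached 0.147. Pairing of part of the cultures was not tested. The replicate block kept all 73 calls and added Relb in WT cells at LPS 24h against Unstim. (adjusted p = 0.0476), Nfkbie in WT cells at LPS 24h against LPS 3h (0.0435) and Rela in restimulated Irg1-/- cells (0.0272). It reversed the Irg1-/- against WT value of Nfkbia at LPS 3h (-0.0117). Other reversals were in values that passed no test. With the pool as a term, Rel in WT cells at LPS 24h against Unstim. was 0.0728, Rela in Irg1-/- cells in the same comparison -0.56, and the genotype values of Rela and Nfkbia at LPS 3h -0.0182 and -0.322. With 1 library left out, Nfkbid in WT cells at LPS 24h against Unstim. ranged from -0.65 to 0.0664, Rela in Irg1-/- cells from -0.0845 to 0.573, and Bcl3 after restimulation of WT cells from -0.17 to 0.36. The genotype value ranged from -1.64 to 0.0919 for Nfkbie in Unstim., from -0.12 to 0.27 for Rela and from -0.26 to 0.18 for Nfkbia at LPS 3h, and the interaction of Nfkbie after restimulation from -0.61 to 1.79.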
